A study of Xenopus laevis with 18 samples.

Results

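Explants of the lateral marginal zone (LMZ), a flank region of the Xenopus laevis gastrula from which lateral mesoderm and the field of the pronephric kidney arise, were compared at early neurula between explants labelled RA-depleted and explants labelled control. The comparison rests on 6 of the 18 arrays of the series, taken by their titles, with 3 arrays in each arm. The explants labelled RA-depleted came from embryos that received GFP mRNA together with mRNA for cyp26, an enzyme family that breaks down retinoic acid (RA). The explants labelled control came from embryos that received GFP mRNA without cyp26, so both arms carry GFP. All 4 blastomeres of each embryo were injected at the 4-cell stage in the equatorial zone, and the explants of both arms were excised at early gastrula and left in culture overnight at 14 °C. Missing from the labels are the cyp26 gene and species used, the number of explants behind an array, and what a shared replicate number stands for. They call the arrays biological replicates. Same-numbered arrays were fitted as pairs, so the p-values measure how evenly the differences within these 3 pairs agree, not the spread between replicates. The fit also shares variance information across probe sets. The series title puts the question of which genes of lateral mesoderm RA controls.

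RA is made from vitamin A in successive oxidations, by retinol dehydrogenases such as rdh10 and retinaldehyde dehydrogenases such as aldh1a2. The reductase dhrs3 turns retinaldehyde back into retinol, and cyp26 enzymes oxidise RA itself for removal. Inside the nucleus RA binds RA receptors (rar genes) paired with retinoid X receptors (rxr genes) on target genes, among which anterior Hox genes, cyp26a1 and dhrs3 are well known, and in the frog embryo RA is known to act in the early pronephric field.

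The 6 arrays had median log2 intensities between 5.48 and 5.51, and their values ran from 2.57 to 14.5. Precision is limited by there being 3 arrays in each arm. Both arrays of replicate number 3 stood apart from the others. The trunk gene hoxc10.L read 8.56, 8.33 and 6.00 on the arrays labelled RA-depleted 1, 2 and 3, against 8.26, 8.70 and 7.55 on those labelled control, and the lateral plate gene foxf1.L read 7.75, 8.14 and 6.38 on the arrays labelled RA-depleted, against 7.82, 8.23 and 6.12 on those labelled control. The head gene otx2.L ran the other way, at 7.06, 6.87 and 8.47 in explants labelled RA-depleted and 7.21, 7.73 and 9.22 in those labelled control. Values without pair 3 are therefore given beside some of the results below, though not beside all that may turn on these arrays. One given below as a mean alone is tbxt.L. It read 9.95, 10.11 and 8.36 in explants labelled RA-depleted and 10.16, 10.35 and 9.5 in those labelled control.

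Markers of 8 tissues were summed on the linear intensity scale in each array to check the tissue label. For pronephric and lateral mesoderm (9 genes) the sums were 2451 to 2935 in explants labelled RA-depleted and 2500 to 2963 in those labelled control, and for somite and muscle (8 genes) 23331 to 23748 in explants labelled RA-depleted and 17719 to 22845 in those labelled control. In 3 of 3 pairs the muscle sum was higher in the explants labelled RA-depleted, and array 2 labelled control, at 17719, was the lowest. The muscle members went both ways and none was called. Above 0 lay myh4.L (0.7), myod1.S (0.6), myod1.L (0.41) and actc1.L (0.1). Below it lay myf5.L (-0.83), msgn1.L (-0.55), msgn1.S (-0.45) and tbx6.L (-0.08). For endoderm (7 genes) the sums were 20672 to 23776 in explants labelled RA-depleted and 22843 to 23737 in those labelled control, and for notochord (4 genes) 1773 to 2606 in explants labelled RA-depleted and 2618 to 3136 in those labelled control. Neural plate markers (7 genes) gave 974 to 1190 in explants labelled RA-depleted and 1149 to 1301 in those labelled control, and neural crest markers (6 genes) 455 to 589 in explants labelled RA-depleted and 411 to 582 in those labelled control. Epidermis and ciliated cells (11 genes) gave 342 to 487 in explants labelled RA-depleted and 211 to 506 in those labelled control, and blood (5 genes) 584 to 1274 in explants labelled RA-depleted and 721 to 1063 in those labelled control. In 3 of 3 pairs the notochord and neural plate sums were lower in the explants labelled RA-depleted, but the members went both ways and none of them was called. The notochord sums of pair 2, at 2606 and 2618, were nearly level. Of the notochord genes tbxt.L (-0.53) and tbxt.S (-0.55) lay below 0, and shh.L (0.82) and col2a1.L (0.07) above it. Of the neural plate genes sox2.L (0.53, above 0 in 3 of 3 pairs) and neurog2.L (0.13) lay above 0 and the other 5 below. No marker was at 0, but pax8.L of the kidney field (4.03 to 4.57 over the 6 arrays), hba1.S of blood (3.29 to 3.58) and tp63.L of epidermis (3.03 to 3.06) were at the dim end of the scale. The blood markers gata1.L, gata1.S and tal1.S, at 3.19 to 4.15, were dim as well. On the linear scale a sum follows its brightest members. Such were lmo2.S of blood (9.05 to 10.25), actc1.L of muscle (13.27 to 13.64), a2m.S of endoderm (13.73 to 13.94) and gata2.L of lateral mesoderm (10.37 to 11.07). In RNA from whole explants, fewer cells of a type and less RNA per cell cannot be told apart, and the part of tissue make-up in the differences below was not tested.

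Within the cyp26 family, cyp26a1.S was lower by its brighter probe set in explants labelled RA-depleted, the arm described as receiving cyp26 mRNA. The other called readings of the family, given here and further on, were higher in that arm. Of the probe sets for cyp26a1.S, the brighter, Xl2.456.1.S1_at, read a log2 of 9.38, 9.44 and 8.55 on the arrays labelled RA-depleted, against 13.53, 13.05 and 13.21 on those labelled control. All of the arrays labelled control were thus brighter, by a log2 difference of -4.14 (SE 0.19, adjusted p = 0.00552, 17.6-fold lower in explants labelled RA-depleted). A dim probe set of the same gene (Xl2.50113.2.A1_a_at) read 6.82, 6.84 and 5.68 in explants labelled RA-depleted and 5.17, 5.26 and 4.75 in those labelled control, a log2 difference of 1.38 (SE 0.15, adjusted p = 0.0352). The 2 probe sets of cyp26a1.S thus passed the test in opposite directions. The bright one passed with each pair left out in turn, whereas the call of the dim one was lost without pair 1 (1.25, adjusted p = 0.126) and without pair 2 (1.29, adjusted p = 0.0835), and with the pairs as a random block (adjusted p = 0.0674). Which transcript or region each of them reads was not analysed here. Of the RA targets named above, dhrs3.L (2.98), cyp26a1.L (1.53) and the anterior Hox genes hoxa3.S (0.86) and hoxc5.L (0.89) were called higher in the arm labelled as depleted of RA. Every direction below follows the labels as deposited and would turn round if the arm labels were exchanged. Whether they were exchanged was not tested.

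In the early neurula explants labelled RA-depleted, dhrs3.L, the cytochrome genes cyp26c1.S and cyp26a1.L, the kidney field genes lhx1.L, osr2.L and mecom.L, the Hox genes hoxa3.S and hoxc5.L and both homeologs of the Hox cofactor meis3 were higher than in those labelled control. Lower were cyp26a1.S, the hyaluronidase gene spam1.L, and the early mesoderm genes vegt.S, eomes.L and pnhd.L. Of 11303 genes with a symbol, 63 were called higher (0.557% of those tested) and 23 lower (0.203%) at a Benjamini-Hochberg adjusted p under 0.05, 86 in all (0.761%). Over all 32475 probe sets 157 were higher (0.483%) and 36 lower (0.111%), 193 in all (0.594%), with 4255 at an unadjusted p under 0.05. Among genes, 13.8% were at such an unadjusted p, which is the figure to set beside the unadjusted counts of lists in which limma called no gene. Beside the called counts of the lists below stand the shares of 0.557% higher and 0.203% lower. The lists were written with earlier results of these data known, so their counts describe them and are no independent test. Each of the 193 called probe sets differed in the same direction in 3 of 3 pairs, and 150 had arrays that did not overlap between the arms. Over all probe sets, called or not, the arrays did not overlap for 4.4% on the higher side and 5.1% on the lower side, and over all genes for 5.18% and 4.17%. At least a 2-fold difference was reached by 83 of the probe sets called higher and 4 of those called lower. These calls come from a fit with the pairs as blocks. With the pairing left out, 6 probe sets were called and 3 of the genes, cyp26a1.S, dhrs3.L and sema3fl.S. Without pair 1 the paired fit called 32 probe sets, without pair 2 112 and without pair 3 174. All 193 kept their sign each time, which their agreement in 3 of 3 pairs fixed in advance. Of the 48 called genes that the naming rule took, 10 passed in every paired fit with a pair left out: dhrs3.L, cyp26c1.S, prph.L, ambp.L, fgfr3.L, ak3.S, ndrg1.L, sfrp2.S, spam1.L and cyp26a1.S.

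**Figure D1:**
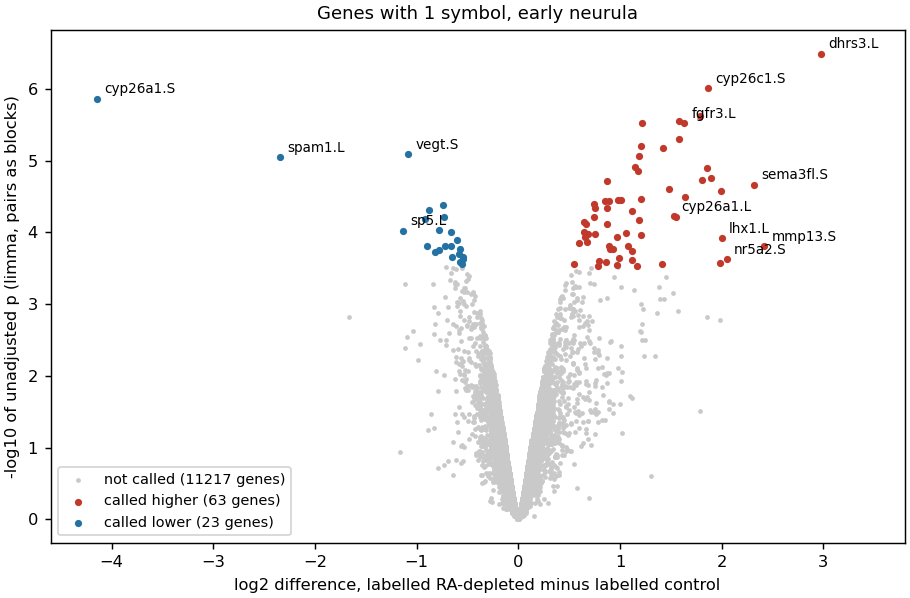
Log2 difference (labelled RA-depleted minus labelled control) of each of the 11303 genes with a symbol on the horizontal axis and the negative log10 of the unadjusted p of the paired limma fit on the vertical axis, 3 pairs. Red points are the 63 genes called higher and blue points the 23 called lower; dhrs3.L lies farthest right at 2.98 and cyp26a1.S farthest left at -4.14.

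Among genes that make, remove or sense RA, the largest differences were in those for removal. dhrs3.L read 10.67, 10.63 and 11.03 in explants labelled RA-depleted, against 7.42, 7.72 and 8.25 in those labelled control, so the arms lay apart by more than 2 log2 units at their nearest points. The difference was 2.98 (SE 0.11, adjusted p = 0.00347), or 7.91-fold, and it passed the test without the pairing as well (adjusted p = 0.0434). cyp26c1.S, a cytochrome that clears RA, read 6.05, 5.16 and 6.48 in explants labelled RA-depleted and 4.05, 3.45 and 4.58 in those labelled control. Its arrays did not overlap and each pair differed by between 1.70 and 1.99 (mean 1.87, SE 0.08, adjusted p = 0.00526). The other probe sets of cyp26c1.S gave 0.13 and 0.33 and were not called. cyp26a1.L, the homeolog of cyp26a1.S, read 10.83, 10.78 and 9.56 in explants labelled RA-depleted and 8.93, 9.27 and 8.38 in those labelled control. Its difference was 1.53 (SE 0.14, adjusted p = 0.0233), but it did not pass without pair 1 (1.34, adjusted p = 0.063) or pair 2 (1.54, adjusted p = 0.0535). With the pairs as a random block the call of cyp26a1.L was lost as well (adjusted p = 0.0674). That fit lost the call of 24 of the 48 called genes that the naming rule took.

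The genes for RA synthesis were not called. aldh1a2.L, the main RA-making enzyme of the early embryo, read 11.82, 11.35 and 11.56 in explants labelled RA-depleted and 11.88, 11.09 and 11.47 in those labelled control, a difference of 0.10 (SE 0.08). The arms overlapped. rdh10.L, which makes retinaldehyde, was below control in 3 of 3 pairs by -0.28 (SE 0.06, adjusted p = 0.18), which did not pass, and rdh10.S was at -0.08 (SE 0.08).

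The receptor genes split. rara.L, an RA receptor, was higher at 7.61, 7.58 and 7.93 in explants labelled RA-depleted, against 7.02, 6.83 and 7.3 in those labelled control (0.66, SE 0.07, adjusted p = 0.0311). rxra.L, its retinoid X partner, was lower at 5.77, 5.75 and 5.22 in explants labelled RA-depleted, against 6.29, 6.53 and 5.87 in those labelled control (-0.65, SE 0.08, adjusted p = 0.044). Neither gene had overlapping arrays, and neither passed when any 1 pair was left out (0.61 to 0.69 for rara.L and -0.58 to -0.72 for rxra.L, adjusted p from 0.0686 to 0.128 over both). The other probe sets of rara.L read 0.17 and -0.04. rarg.S was at -0.27 (SE 0.09, adjusted p = 0.326). Of the 24 measured genes of RA metabolism and reception, 4 were called higher (16.7%, beside 0.557% of all genes) and 2 lower (8.33%, beside 0.203%), and 18 were not called. Their median was -0.01, beside 0.01 over all genes, and 12 of the 24 lay above 0, beside 53.1% of all genes.

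**Figure D2:**
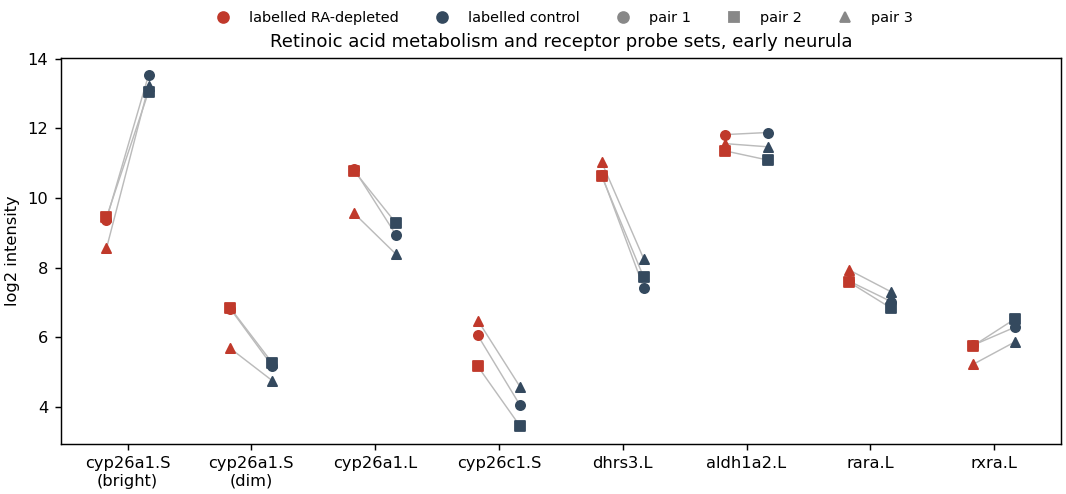
Log2 intensity of 8 probe sets for RA metabolism and receptor genes on each of the 6 arrays, explants labelled RA-depleted in red to the left of those labelled control in blue, with a line joining each pair and a symbol for its number. The bright cyp26a1.S probe set is between 8.55 and 9.44 in explants labelled RA-depleted, below the 13.05 to 13.53 of those labelled control, while the dim one, cyp26a1.L, cyp26c1.S, dhrs3.L and rara.L run the other way.

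Genes that the literature describes as responsive to RA lay mostly above 0, that is, higher in the explants labelled RA-depleted. Of 22 measured, 8 were called higher (36.4%, beside 0.557% of all genes) and 1 lower, cyp26a1.S, while 13 were not called. The list was written with earlier results of these data known, so the share describes it and is no independent test. The median was 0.68, and 19 of the 22 lay above 0. Without pair 1 the called counts were 1 higher and 1 lower, without pair 2 4 and 1, and without pair 3 8 and 1, with medians between 0.58 and 0.71. tshz3.L, a teashirt zinc finger gene, read 6.90, 6.67 and 6.24 in explants labelled RA-depleted and 5.72, 5.33 and 5.22 in those labelled control. Its arrays did not overlap (1.18, SE 0.08, adjusted p = 0.0138), and it did not pass without pair 1 (adjusted p = 0.0795). nr2f2.L, an orphan nuclear receptor, read 7.22, 6.47 and 7.83 in explants labelled RA-depleted and 6.30, 5.66 and 6.94 in those labelled control. The arms of nr2f2.L overlapped, but the pairs differed by 0.92, 0.81 and 0.89 (mean 0.87, SE 0.06, adjusted p = 0.016; 0.086 without pair 1). Members at or below 0 were cdx4.L (-0.03, SE 0.06) and cdx1.S (-0.25), caudal homeobox genes of the tail end, besides cyp26a1.S. The somite segmentation genes ripply2.2.S (0.91, SE 0.18) and ripply2.2.L (0.90, SE 0.18) did not pass (adjusted p = 0.144 and 0.146).

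Hox genes mark position along the body axis in the order of their paralog numbers. Of 8 measured genes of paralogs 1 to 5, which mark hindbrain and anterior trunk, 2 were called higher (25%, beside 0.557% of all genes). All 8 lay above 0, with a median of 0.66. hoxa3.S read 8.95, 8.48 and 8.22 in explants labelled RA-depleted, against 7.83, 7.85 and 7.40 in those labelled control, and its arrays did not overlap (0.86, SE 0.10, adjusted p = 0.0479). hoxc5.L read 9.58, 9.28 and 8.79 in explants labelled RA-depleted, against 8.57, 8.51 and 7.91 in those labelled control (0.89, SE 0.07, adjusted p = 0.0187), also without overlap, and its other probe sets gave 0.91, which was called, and 0.51, which was not. The call of hoxc5.L was lost without pair 1 (0.82, adjusted p = 0.0884), and that of hoxa3.S without pair 1, 2 or 3 (0.73, 0.97 and 0.88, adjusted p = 0.118, 0.0522 and 0.0888). hoxb2.S had a larger but less even difference, of 0.59, 1.12 and 1.96 in the pairs (mean 1.22, SE 0.25, adjusted p = 0.142), and hoxb4.S was at 0.57 (SE 0.08, adjusted p = 0.0686), hoxa2.S at 0.53 (SE 0.09, adjusted p = 0.095) and hoxa2.L at 0.74 (SE 0.16, adjusted p = 0.168).

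None of the 7 genes of paralogs 6 to 8 and none of the 10 of paralogs 9 to 13 was called by limma, with medians of 0.00 and -0.17, and 1 and 2 of them had an unadjusted p under 0.05. Their pairs disagreed. The medians of paralogs 6 to 8 in pairs 1, 2 and 3 were 0.43, 0.02 and -0.48, and those of paralogs 9 to 13 were 0.32, -0.09 and -0.77, whereas those of paralogs 1 to 5 were 0.57, 0.63 and 0.77. Without pair 3 the medians were 0.28 for paralogs 6 to 8, 0.11 for paralogs 9 to 13 and 0.58 for paralogs 1 to 5. Below 0 in pair 3 were hoxd10.L (4.6 in explants labelled RA-depleted, 5.85 in those labelled control) and hoxc10.L (pair difference -1.55). In pair 1 both were above 0, by 0.46 for hoxd10.L and 0.29 for hoxc10.L. No test was made of the difference between paralog groups.

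**Figure D3:**
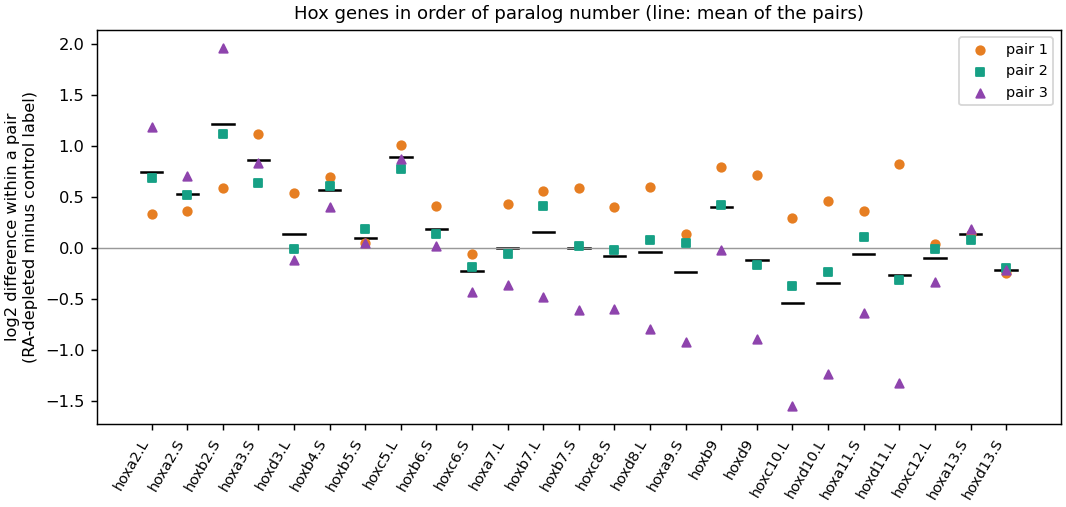
Log2 difference within each pair (explants labelled RA-depleted minus labelled control) for 25 Hox genes ordered by paralog number, with the mean of the pairs as a line. The genes of paralogs 1 to 5 have means between 0.10 and 1.22, and from paralog 6 on pair 3 (triangles) lies mostly below 0 and pair 1 (circles) mostly above it.

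TALE homeobox proteins bind DNA together with Hox proteins. Of 9 measured genes of this class 2 were called, both of them higher (22.2%, beside 0.557% of all genes) and both homeologs of meis3. meis3.L, which in the frog acts in the posterior neural plate, read 8.70, 8.40 and 9.15 in explants labelled RA-depleted, against 7.35, 6.42 and 7.83 in those labelled control (1.55, SE 0.14, adjusted p = 0.0234). meis3.S read 8.99, 8.79 and 9.67 in explants labelled RA-depleted, against 8.17, 7.71 and 8.55 in those labelled control (1.01, SE 0.08, adjusted p = 0.0187). Neither homeolog overlapped between the arms, and a second probe set of meis3.L was called as well, at 0.67. Without pair 1 neither passed (1.65 and 1.1, adjusted p = 0.086 and 0.0517), and meis3.S did not without pair 2 (0.97, adjusted p = 0.0538). meis2.L was at 0.50 (SE 0.14, adjusted p = 0.234), and the related repressor tgif2.S was at -0.36 (SE 0.06, adjusted p = 0.111). The median of the list was 0.21.

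In the pronephric kidney field, 3 of 36 measured genes were called higher (8.33%, beside 0.557% of all genes) and none lower. The median was 0.04, near that of all genes. lhx1.L, a LIM homeobox gene needed for the early kidney, read 9.0, 8.49 and 9.11 in explants labelled RA-depleted, against 6.51, 6.34 and 7.75 in those labelled control. All of the arrays labelled RA-depleted were brighter (2.0, SE 0.21, adjusted p = 0.0313, 3.99-fold), the pairs differing by 2.49, 2.15 and 1.36. It did not pass without pair 1 (1.75, adjusted p = 0.101) or pair 2 (1.92, adjusted p = 0.0743). Its other probe sets read 1.21 and 0.01, neither of them called. mecom.L, a zinc finger gene of the pronephros, read 5.05, 5.05 and 4.57 in explants labelled RA-depleted, against 3.69, 3.94 and 3.67 in those labelled control. These arrays too lay apart (1.12, SE 0.10, adjusted p = 0.0213), at a dim level where differences may be understated. The call was lost without pair 1 (1.01, adjusted p = 0.0812) and without pair 2 (1.13, adjusted p = 0.0553). The other probe set of mecom.L read 0.66 and was not called (adjusted p = 0.101). osr2.L, a zinc finger gene of the kidney field, read 5.58, 5.8 and 6.25 in explants labelled RA-depleted and 4.94, 5.02 and 5.44 in those labelled control (0.74, SE 0.07, adjusted p = 0.0234), and did not pass when any 1 pair was left out (0.71 to 0.79, adjusted p from 0.057 to 0.0906).

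The other early regulators of the kidney field were not called. pax8.L read 4.57, 4.18 and 4.03 in explants labelled RA-depleted and 4.51, 4.1 and 4.33 in those labelled control (-0.05, SE 0.10), and pax2.L was at 0.02 (SE 0.08). The arms of both genes overlapped. osr1.L was at 0.69 (SE 0.26, adjusted p = 0.362), with pair differences of 0.71, -0.06 and 1.42, and osr2.S was at 0.18 (SE 0.09). irx3.L, which patterns the nephron, was at 0.74 (SE 0.10, adjusted p = 0.0663). None of 27 genes of intermediate and lateral plate mesoderm was called (median -0.06, 8 at an unadjusted p under 0.05). foxf1.L of the lateral plate was at 0.03 (SE 0.09), hand1.L at 0.73 (SE 0.13, adjusted p = 0.112) and the signal bmp4.S at -0.55 (SE 0.08, adjusted p = 0.0723). None of 25 genes of blood and endothelium was called either (median -0.09, 7 above 0, 6 at an unadjusted p under 0.05), sox7.L being nearest to it (-0.64, SE 0.08, adjusted p = 0.0508).

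Nuclear receptors gave 4 genes called higher (10%, beside 0.557% of all genes) and 1 lower (2.5%, beside 0.203%) among 40, with a median of 0.06. Besides rara.L, nr2f2.L and rxra.L, the called members were nr5a2.S, a receptor of early endoderm and steroid tissues in mammals, and nr2f5.S. nr5a2.S read 6.87, 6.35 and 7.86 in explants labelled RA-depleted, against 4.75, 5.01 and 5.16 in those labelled control. The arms lay apart by more than 1 log2 unit (2.05, SE 0.24, adjusted p = 0.0453), although the other probe set of the gene read 0.08 and the call was lost without pair 1 (2.02, adjusted p = 0.166) and pair 3 (1.73, adjusted p = 0.0502). nr2f5.S read 4.99, 4.72 and 5.56 in explants labelled RA-depleted and 4.18, 4.12 and 4.72 in those labelled control, with arms that touched and even pairs (0.75, SE 0.08, adjusted p = 0.0298). It did not pass when any 1 pair was left out (0.71 to 0.83, adjusted p from 0.0507 to 0.134). esrra.L, an orphan receptor, had a mean of 1.57 (SE 0.26, adjusted p = 0.0984) but pairs at 1.15, 2.41 and 1.14.

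Early mesoderm genes lay mostly below 0, that is, lower in the explants labelled RA-depleted. Of 53 measured, 4 were called lower (7.55%, beside 0.203% of all genes) and 1 higher, 11 lay above 0, and the median was -0.12. As this list too was written with earlier results of these data known, the share is no independent test. vegt.S, a T-box gene that starts mesoderm and endoderm, read 8.91, 9.0 and 7.96 in explants labelled RA-depleted, against 10.04, 9.98 and 9.11 in those labelled control. No array of one arm reached the other (-1.08, SE 0.07, adjusted p = 0.0125), and the pairs differed by -1.12, -0.98 and -1.15. eomes.L, another early T-box gene, read 4.97, 5.08 and 5.4 in explants labelled RA-depleted, against 5.89, 5.65 and 6.24 in those labelled control (-0.78, SE 0.09, adjusted p = 0.0381). pnhd.L, which encodes the secreted factor Pinhead, read 9.96, 10.08 and 9.24 in explants labelled RA-depleted, against 11.04, 10.82 and 10.19 in those labelled control (-0.92, SE 0.09, adjusted p = 0.0238). Both of these were without overlap. The calls of vegt.S, eomes.L and pnhd.L were lost without pair 1 (-1.07, -0.71 and -0.84, adjusted p = 0.0671, 0.141 and 0.106), and those of eomes.L and pnhd.L without pair 3 too (-0.75 and -0.91, adjusted p = 0.0848 and 0.0574).

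The BMP pseudo-receptor gene bambi.L, a feedback gene of BMP signalling, was the fourth, at 9.27, 9.07 and 8.22 in explants labelled RA-depleted, against 9.95, 9.95 and 9.35 in those labelled control (-0.90, SE 0.10, adjusted p = 0.0352; 0.0545 to 0.0951 with any 1 pair left out). It was also the single gene called among 63 of the BMP and TGF-beta pathway, where 14 lay above 0 and the median was -0.15. The member called higher was tdgf1.2.S, a Cripto-type co-receptor for Nodal ligands, at 8.18, 8.05 and 8.50 in explants labelled RA-depleted and 7.27, 7.1 and 7.01 in those labelled control. It was apart between the arms (1.12, SE 0.13, adjusted p = 0.0387), and did not pass without pair 1 (1.22, adjusted p = 0.111) or pair 2 (1.2, adjusted p = 0.0659). The mesodermal T-box gene tbxt had homeologs at -0.53 (tbxt.L, SE 0.19, adjusted p = 0.347) and -0.55 (tbxt.S, SE 0.13, adjusted p = 0.19), and the signal wnt11b.L was at -0.67 (SE 0.09, adjusted p = 0.0625).

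Of 66 genes of the extracellular matrix and its proteases, 2 were called higher and 2 lower by their brightest probe sets, and 62 were not called. The shares over all genes were 0.557% and 0.203%. The list's median was 0.00. mmp13.S, a collagenase, read 7.78, 6.58 and 8.50 in explants labelled RA-depleted, against 5.58, 4.78 and 5.25 in those labelled control (2.42, SE 0.27, adjusted p = 0.0352, 5.36-fold), and mmp3.L, a stromelysin, read 6.44, 5.75 and 6.50 in explants labelled RA-depleted, against 5.34, 4.98 and 5.04 in those labelled control (1.12, SE 0.13, adjusted p = 0.046). spam1.L, annotated as a hyaluronidase of sperm, read 6.21, 5.76 and 5.42 in explants labelled RA-depleted, against 8.99, 7.99 and 7.43 in those labelled control. It was the largest decrease after cyp26a1.S (-2.34, SE 0.15, adjusted p = 0.0126, 5.06-fold), and passed with each pair left out in turn. has-rs.S, a gene related to hyaluronan synthases, was lower by -0.57 (SE 0.07, adjusted p = 0.0479). None of these 4 genes overlapped between the arms. Without pair 1 mmp13.S (2.53, adjusted p = 0.122), mmp3.L (1.12, adjusted p = 0.166) and has-rs.S (-0.54, adjusted p = 0.192) did not pass, nor did mmp3.L without pair 3 (0.94, adjusted p = 0.053) or has-rs.S without pair 2 or 3 (-0.55 and -0.63, adjusted p = 0.163 and 0.0666). The collagen gene col9a1.L was at 1.86 (SE 0.32, adjusted p = 0.105) with pairs at 1.57, 2.87 and 1.12, and the metalloproteinase inhibitor gene timp2.S at -0.84 (SE 0.12, adjusted p = 0.0663). Of genes picked after their values were seen, the hyaluronidase gene hyal2.L was called higher (0.75, SE 0.07, adjusted p = 0.0207). Its homeolog hyal2.S was at -0.17 (SE 0.08, adjusted p = 0.46) and was not called. The call of hyal2.L was lost with any 1 pair left out (adjusted p from 0.0531 to 0.112). Dimmer probe sets of hapln3.S (2.58 and 1.24, adjusted p = 0.00254 and 0.0162) and vcan.L (1.38, adjusted p = 0.0132) were called higher too. Neither gene was called by its brightest probe set. The dimmer probe sets of hapln3.S passed with each pair left out in turn, and that of vcan.L did not without pair 1 (adjusted p = 0.0545).

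Single genes were called among the signalling and guidance lists. fgfr3.L, an FGF receptor, read 7.25, 6.76 and 7.40 in explants labelled RA-depleted, against 5.51, 5.33 and 5.68 in those labelled control. Its arms lay apart by more than 1 log2 unit (1.63, SE 0.09, adjusted p = 0.00758), and it passed with each pair left out in turn, while its homeolog fgfr3.S was at -0.03 (SE 0.07). It was the 1 gene called of 32 in the FGF pathway (median 0.02). The feedback phosphatase genes dusp6.S (0.63, SE 0.10, adjusted p = 0.0862) and dusp5.S (0.53, SE 0.09, adjusted p = 0.101) read higher in 3 of 3 pairs and did not pass.

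Of 62 Wnt pathway genes, 2 were called higher (3.23%, beside 0.557% of all genes) and 1 lower (1.61%, beside 0.203%). The median was -0.05. sfrp2.S, a secreted Wnt-binding protein, read 10.40, 10.03 and 10.66 in explants labelled RA-depleted, against 9.19, 8.87 and 9.39 in those labelled control. The pairs differed evenly, by 1.21, 1.17 and 1.28 (mean 1.22, SE 0.06, adjusted p = 0.00758). prickle1.L, of planar polarity, was higher by 0.89 (SE 0.10, adjusted p = 0.0352) with prickle1.S at 0.56 (SE 0.08, adjusted p = 0.0674), and its call was lost when any 1 pair was left out (0.77 to 0.97, adjusted p from 0.0538 to 0.118). sp5.L, a zinc finger target of Wnt signalling, read 8.78, 9.54 and 8.28 in explants labelled RA-depleted and 10.11, 10.35 and 9.53 in those labelled control. Array 2 labelled RA-depleted was level with array 3 labelled control, so the arms met, but each pair differed by at least 0.82 (-1.13, SE 0.11, adjusted p = 0.0283); without pair 1 (-1.03, adjusted p = 0.117) or pair 3 (-1.07, adjusted p = 0.0646) it did not pass.

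sema3fl.S, a semaphorin of the class that guides axons and cells, was called among 37 guidance genes (median 0.02). It read 8.16, 7.81 and 8.47 in explants labelled RA-depleted, against 5.81, 5.99 and 5.7 in those labelled control (2.32, SE 0.18, adjusted p = 0.0161), and passed without the pairing (adjusted p = 0.0434) but not without pair 1 (2.30, adjusted p = 0.0854). Its homeolog sema3fl.L had no overlap either (1.45, SE 0.19) but missed the threshold by its brightest probe set (adjusted p = 0.0599). Another probe set of sema3fl.L was called (1.57, adjusted p = 0.0345), though not without pair 1 (adjusted p = 0.086) or pair 2 (adjusted p = 0.0585), and the remaining ones gave 1.19 and 0.44 and were not. None of 30 Notch genes (median -0.02, 8 at an unadjusted p under 0.05) and none of 15 Hedgehog genes (median 0.14, 13 above 0, 2 at such a p) was called, shh.L standing at 0.82 (SE 0.31, adjusted p = 0.358).

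**Figure D4:**
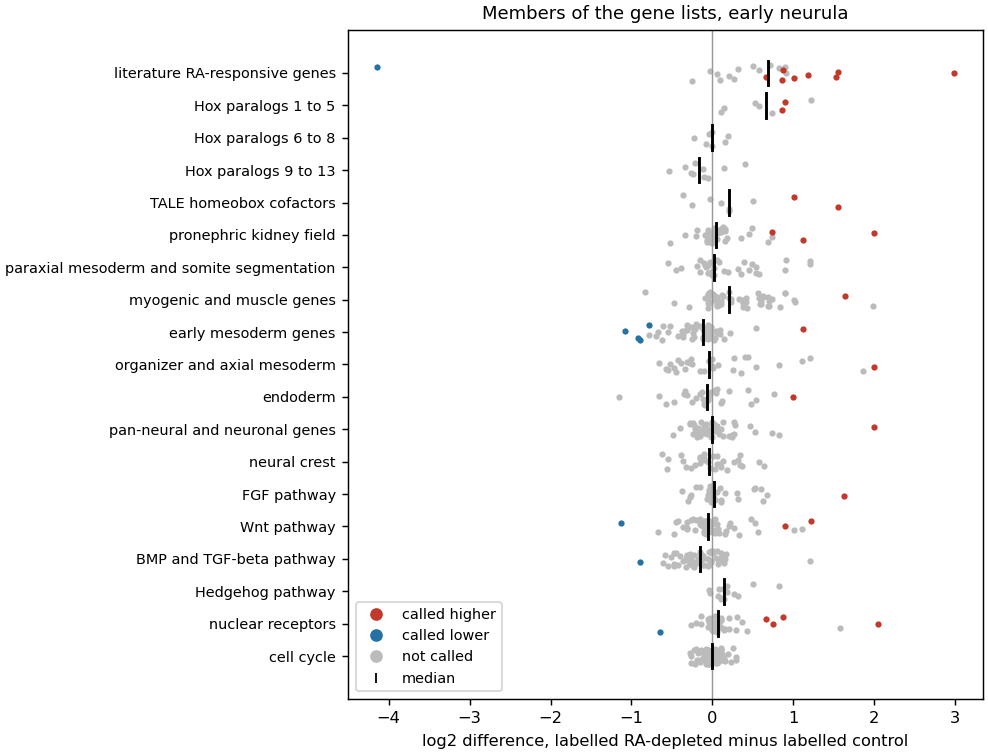
Log2 difference (explants labelled RA-depleted minus labelled control) of each measured gene in 19 of the lists, 1 point a gene, red where called higher, blue where called lower and grey otherwise, with the median of each list as a black bar. The medians of literature RA-responsive genes (0.68) and of Hox paralogs 1 to 5 (0.66) lie to the right of 0, and early mesoderm genes (-0.12) and the BMP and TGF-beta pathway (-0.15) to its left.

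Muscle genes had a median of 0.21 over 57 genes, 43 of them above 0, but 1 was called, ak1.L, the adenylate kinase of muscle cytosol. It read 10.15, 9.54 and 10.12 in explants labelled RA-depleted, against 8.73, 7.51 and 8.65 in those labelled control, without overlap (1.64, SE 0.13, adjusted p = 0.0187; 0.0671 without pair 1), and its other probe set was called at 1.80. Its homeolog ak1.S had the opposite sign and was not called (-0.48, SE 0.11, adjusted p = 0.18). The list's medians in pairs 1, 2 and 3 were 0.08, 0.53 and 0.12, and array 2 labelled control was the one whose muscle marker sum, 17719, was lowest. Without pair 2 the list median was 0.09. pgam2.L, a muscle phosphoglycerate mutase, had pair differences of 2.08, 2.92 and 0.95 (mean 1.98, SE 0.35, adjusted p = 0.111), and myod1.S, a myogenic regulator, 0.44, 1.34 and 0.01 (mean 0.60, SE 0.24, adjusted p = 0.388). None of 33 genes of paraxial mesoderm and somite segmentation was called (median 0.02, 15 at an unadjusted p under 0.05). The segmentation genes mespa.L (1.21, SE 0.19, adjusted p = 0.0898) and ripply2.1.S (1.2, SE 0.23, adjusted p = 0.126) read higher in 3 of 3 pairs without passing, and without pair 3 4 members of the list were called.

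The lists for other tissues held 1 or 2 called genes or none. Of 54 pan-neural and neuronal genes (median -0.01), prph.L was called, an intermediate filament gene of neurons, at 7.27, 6.48 and 6.51 in explants labelled RA-depleted and 4.80, 4.66 and 4.83 in those labelled control. Its arms lay apart by more than 1 log2 unit (1.99, SE 0.16, adjusted p = 0.0173) while prph.S was at -0.10. sox2.L was at 0.53 (SE 0.11, adjusted p = 0.144). Of 30 hindbrain and anteroposterior neural genes (median 0.06), cyp26c1.S and nr2f5.S, described above, were called, and gbx2.1.S, of the hindbrain boundary, was at 1.52 (SE 0.22, adjusted p = 0.075) with its highest pair difference, 2.23, in pair 3. None of 32 neural crest genes was called (median -0.04, 14 at an unadjusted p under 0.05).

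Of 30 endoderm genes (median -0.07), darmin.L was called, a peptidase gene of frog endoderm, at 10.11, 9.99 and 10.98 in explants labelled RA-depleted and 8.88, 9.31 and 9.91 in those labelled control (0.99, SE 0.12, adjusted p = 0.0445). It did not pass without pair 1 (0.87, adjusted p = 0.134) or pair 3 (0.95, adjusted p = 0.0921). The endoderm factors sox17a.L (-0.13, SE 0.12), sox17a.S (-0.20, SE 0.08) and foxa2.L (-0.66, SE 0.09, adjusted p = 0.0562) lay on the other side of 0. Among 32 organizer and axial mesoderm genes (median -0.04) lhx1.L was the one called, and fst.L, which binds activin, was at 1.21 (SE 0.23, adjusted p = 0.127). Of 41 genes of epidermis and ciliated cells (median 0.01), spag6.L, of the ciliary axoneme, was called at 1.06 (SE 0.11, adjusted p = 0.0292), but its other 5 probe sets read between -0.04 and 0.82, and it did not pass without pair 1 (1.16, adjusted p = 0.0867) or pair 3 (1.11, adjusted p = 0.0563). krt12.4.L of epidermis had pair differences of 3.44, -0.12 and 2.05 (SE 0.62, adjusted p = 0.329). In the cement and hatching gland list, mmp13.S was the 1 of 10 called (median -0.26).

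By its brightest probe set no gene was called among 39 forkhead factors (median -0.05), 36 immediate early and stress genes (-0.01), 73 cell cycle genes (0.00), 24 solute carriers (-0.06), 21 cadherins (0.00) or 17 reference genes (0.03). Dimmer probe sets of the solute carrier slc38a2.L (-0.65, adjusted p = 0.0484) and the reference gene hprt1.L (0.78, adjusted p = 0.0227) were called. Both calls were lost when any 1 pair was left out (adjusted p from 0.0527 to 0.134 over both). The brightest probe sets of these genes read -0.55 (adjusted p = 0.0509) and 0.27 (adjusted p = 0.315). At an unadjusted p under 0.05 were 13 of the forkhead factors, 9 of the immediate early and stress genes, 12 of the cell cycle genes, 11 of the solute carriers, 3 of the cadherins and 2 of the reference genes. The forkhead gene nearest to a call was foxa2.L, given above (adjusted p = 0.0562), and the next was foxd4l1.1.S, at 5.71, 6.15 and 4.82 in explants labelled RA-depleted and 6.75, 6.89 and 6.37 in those labelled control (-1.11, SE 0.16, adjusted p = 0.0663). Among the reference genes gapdh.S read 0.80 (SE 0.12, adjusted p = 0.0838) and gapdh.L 0.12 (SE 0.07), so the homeologs of that gene differed in size.

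Beyond the lists, the genes with the largest differences included ambp.L, which encodes a plasma protein precursor, at 9.27, 8.77 and 9.15 in explants labelled RA-depleted and 7.77, 6.84 and 7.01 in those labelled control. The arms were apart by 1 log2 unit (1.86, SE 0.13, adjusted p = 0.0138), but the gene's other probe set read -0.20. lrrn1.L, a membrane protein gene with leucine-rich repeats, was higher by 1.90 (SE 0.14, adjusted p = 0.0159; 0.0806 without pair 1), with its other probe set at 0.18, and the unnamed locus XB5894820.L by 1.81 (SE 0.13, adjusted p = 0.016; 0.0671 without pair 1). ndrg1.L read 5.78, 5.61 and 6.30 in explants labelled RA-depleted and 4.12, 4.21 and 4.62 in those labelled control (1.58, SE 0.08, adjusted p = 0.00758), and ak3.S, a mitochondrial adenylate kinase, read 7.17, 7.24 and 7.79 in explants labelled RA-depleted and 5.81, 5.5 and 6.16 in those labelled control (1.58, SE 0.09, adjusted p = 0.0107). Neither gene overlapped between the arms, which the rule that picked them required. The homeologs lrrn1.S (-0.09), ndrg1.S (-0.04) and ak3.L (0.57) were not called.

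On the lower side, sgk1.L, a kinase of ion transport and stress, read 9.67, 9.70 and 9.56 in explants labelled RA-depleted and 10.69, 10.55 and 10.17 in those labelled control (-0.82, SE 0.09, adjusted p = 0.0394). dcbld1.S fell by 0.88 on the log2 scale (SE 0.08, adjusted p = 0.0213) and the crystallin gene cryba2.S fell by 0.78 (SE 0.08, adjusted p = 0.028). Called with them were ppp1r13l.L, an inhibitor of p53 (-0.73), lrwd1.L, which binds the replication origin complex (-0.72), ppp1r3c.1.L, which directs a phosphatase to glycogen (-0.66), klf17.1.S, a zinc finger gene (-0.66), and XB5904899.L, an unnamed locus (-0.60). None of these 8 genes passed without pair 1 or without pair 2 (adjusted p from 0.0562 to 0.141), and without pair 3 sgk1.L, ppp1r13l.L and lrwd1.L passed.

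**Figure D5:**
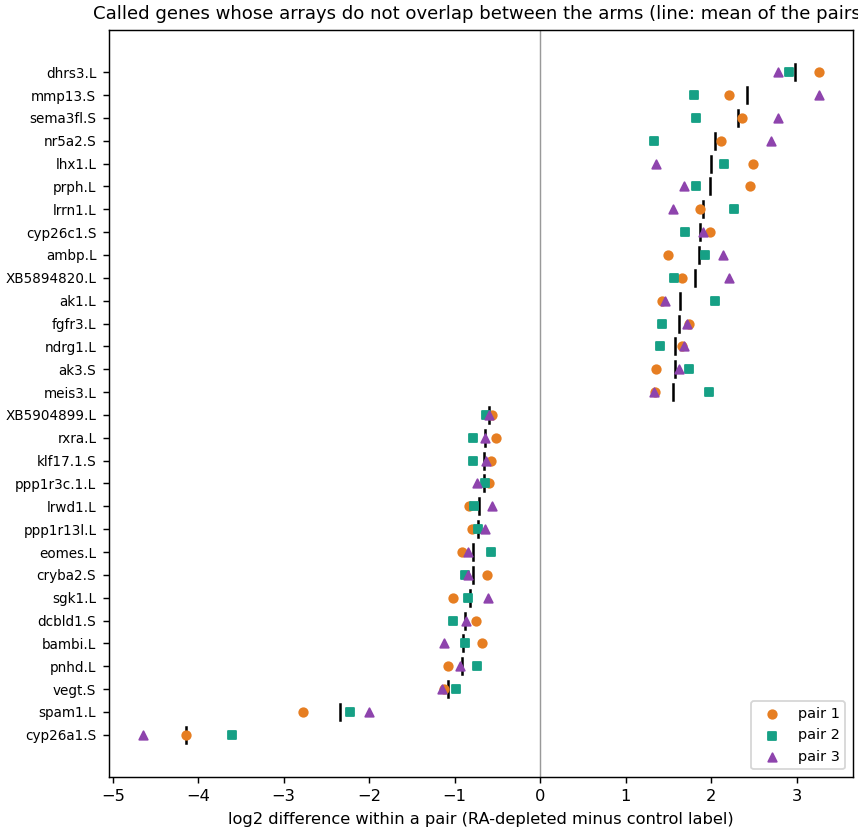
Log2 difference within each of the 3 pairs (explants labelled RA-depleted minus labelled control), with the mean as a line, for the 15 genes per direction with the largest differences among those that were called and had no overlap between the arms. Every point lies on the side of its mean, which the choice of genes without overlap fixed in advance. The widest spread between pairs is that of mmp13.S, whose differences lie between 1.80 and 3.26.

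Probe sets without a gene symbol made up 75 of the 157 called higher and 11 of the 36 called lower. Xl2.283.1.S1_at read 9.34, 9.65 and 9.94 in explants labelled RA-depleted, against 5.11, 6.48 and 5.01 in those labelled control (4.11, SE 0.31, adjusted p = 0.0161), and Xl2.23512.1.S1_at 10.15, 10.31 and 10.39 in explants labelled RA-depleted, against 6.86, 7.6 and 6.04 in those labelled control (3.45, SE 0.29, adjusted p = 0.0196). Both were far apart between the arms, yet neither passed without pair 1 (adjusted p = 0.0854 and 0.0882). Xl2.9073.1.A1_at (3.03, SE 0.10, adjusted p = 0.00295) passed with each pair left out in turn. Xl2.15008.1.A1_at (2.47, SE 0.16, adjusted p = 0.0127) did not without pair 1 (adjusted p = 0.0517). Those lower were Xl2.32221.1.A1_at (-0.96), Xl2.4695.1.S1_at (-0.93), Xl2.18027.1.A1_at (-0.90) and Xl2.9719.1.A1_at (-0.72), none of which passed without pair 1 (adjusted p from 0.106 to 0.179).

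Other readings of the same gene and of its homeolog agreed in sign more often than in the call. The called genes had 42 other probe sets, of which 35 had the same sign, 9 were called the same way and 1, that of cyp26a1.S, the other way. For 37 called genes the homeolog was measured, with the same sign in 27. The homeologs of meis3 and of tmem150b, a membrane protein gene, were both called higher, those of cyp26a1 were called in opposite directions, and the remaining homeologs were not called by their brightest probe set.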

How the data were processed

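Total RNA was labelled for Affymetrix Xenopus laevis arrays. The deposited log2 values came from RMA in affy, run by the authors per the submitters' processing notes. Versions, annotation and which arrays were normalized together are not given in the sources used here. Values were used as deposited. Of 32635 probe sets, 160 controls were left out and 32475 tested. Of these 15495 had 1 gene symbol in the platform annotation, 279 had several and 16701 none. An Entrez ID of 15384 matched the gene table of assembly Xenopus_laevis_v10.1, which updated 2 symbols. The probe set with the highest mean stood for each of the 11303 genes, 2702 of which had several.

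The 6 arrays were fitted in limma 3.58.1 (lmFit, eBayes; R 4.3.3) with arm and replicate number as fixed terms (2 residual and 3.56 prior degrees of freedom). Benjamini-Hochberg adjustment ran over all 32475, and calls were made under 0.05. SE is limma's moderated standard error. Figures used matplotlib 3.10.9 in Python 3.11.15. After removal of arm means, same-numbered arrays correlated at 0.64, 0.67 and 0.74 across probe sets and others between arms at -0.48 to -0.11. The deviations of the arrays of an arm then add up to 0. Correlations above 0 for same numbers thus bring the others below 0 by construction. Probe sets are not independent replicates, and the pairing itself was taken from the titles.

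The named genes were up to 15 per direction (called, arrays not overlapping, largest difference), up to 6 members of each of 33 lists by p, up to 4 unnamed probe sets per direction, and a fixed panel, 204 genes in all. The members and lists were chosen with earlier results of these data known. The fit was also run on simulated data with independent normal noise, 5 runs of 200 changed probe sets each. It recovered 3.28% of log2 changes of 0.5, 56.7% of those of 1 and 87.6% of those of 2. Of its 496 calls 6 were false. Without the block 465 were called, so the simulated data lacked the strong dependence on the block seen in the arrays. The pairing was thus not tested by them. Alternatives to the main fit were no or a random replicate block, dim probe sets left out, median centring, quantile normalization once more, a robust variance with a trend, cross-matching probe sets left out, the dimmest probe set per gene, and each pair left out.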

Additional observations from a re-analysis of the deposited data

How the results depend on the processing

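The count of called probe sets, 193 with 157 higher and 36 lower, depended on how the pairing and the variance were handled. Without the replicate block it was 6 (5 higher, 1 lower), with the block as a random effect 94 (77 and 17), with dim probe sets left out 109 (88 and 21, of 14634 tested) and with a trended and robust variance 496 (277 and 219). Higher calls made up 81.3% of the main count and 55.8% under that variance. Leaving out a pair gave 32 to 174 calls, 28 to 135 higher and 4 to 39 lower; the fewest came without pair 1, and the cause was not tested. Repeated quantile normalization, median centring and leaving out cross-matching probe sets kept all 3 counts within 1.5 times. Median residual SD was 0.089 with the block and 0.138 without it.

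Of the 48 called genes that the naming rule took, the call was lost by 45 without the block, 24 with the random block, 10 of 40 with dim probe sets left out and 2 (mmp13.S and nr5a2.S) with the trended variance. None changed sign under these fits or with a pair left out, but that outcome was fixed in advance. These fits leave the log2 difference as it was, and each called gene had the same direction in 3 of 3 pairs. The dimmest probe set was also put in place of the brightest in the called genes with several. Of these, 3 kept the call, 9 lost it with the same sign and 4 changed sign. The 4 were ambp.L (-0.20), cyp26a1.S (1.38), rara.L (-0.04) and spag6.L (-0.04), and the cause was not tested. With 3 pairs and 2 residual degrees of freedom, an uncalled gene cannot be read as unaffected, and differences at dim probe sets may be understated.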

Other observations

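Several genes known for proteins that the mature liver makes or uses stood among those called higher in the explants labelled RA-depleted. They lie outside the naming rule and were chosen among called genes after their values were seen, so they are given as values. How many genes of this kind were measured and not called was not counted. c8a.L, a complement component, read 7.86, 7.23 and 8.96 in explants labelled RA-depleted and 5.17, 5.31 and 7.62 in those labelled control (log2 difference 1.98, SE 0.24, adjusted p = 0.0484). That call was lost without pair 1 (1.63, adjusted p = 0.0806), without pair 2 (2.02, adjusted p = 0.0974), with the random block (adjusted p = 0.16), with the trended variance (adjusted p = 0.077) and with dim probe sets left out (adjusted p = 0.0678). fetub.S, a secreted protease inhibitor, read 10.62, 9.92 and 12.18 in explants labelled RA-depleted and 8.92, 7.91 and 10.52 in those labelled control (1.79, SE 0.09, adjusted p = 0.00758). In both c8a.L and fetub.S the arms overlapped, because array 3 was the brightest of each arm, while every pair was higher. slc2a2.L, a glucose transporter, read 10.63, 9.85 and 9.99 in explants labelled RA-depleted and 9.04, 8.61 and 8.57 in those labelled control, without overlap (1.42, SE 0.09, adjusted p = 0.0107). fetub.S and slc2a2.L passed with each pair left out in turn (adjusted p from 0.0105 to 0.0442 over both). With the random block slc2a2.L passed (adjusted p = 0.0178) and fetub.S did not (adjusted p = 0.194). hao2.S, a peroxisomal oxidase, was also apart between the arms (1.21, SE 0.10, adjusted p = 0.0187). Its homeolog hao2.L was at 0.29 (SE 0.10, adjusted p = 0.32) and was not called. hrg.L, a plasma glycoprotein, was higher by 0.90 (SE 0.10, adjusted p = 0.0371). hao2.S did not pass without pair 1 (1.27, adjusted p = 0.0812), and hrg.L did not pass without pair 1, 2 or 3 (1.00, 0.78 and 0.93, adjusted p = 0.0971, 0.0621 and 0.0725). The call of hrg.L was also lost with the random block (adjusted p = 0.31) and with dim probe sets left out (adjusted p = 0.0532). Beside them the endoderm marker sum was 20672 to 23776 in explants labelled RA-depleted and 22843 to 23737 in those labelled control. It was higher in 1 of 3 pairs. That sum mostly follows its brightest member, a2m.S, which read 13.73 to 13.94 on the arrays of both arms (log2 difference -0.09). Of the other members, darmin.L was called higher (0.99). Below 0 lay foxa2.L (-0.66), sox17a.L (-0.13), sox17a.S (-0.20), sox17b.1.L (-0.58) and sox17b.1.S (-0.35). The part of endoderm content in the values of the liver-protein genes was not tested.

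Of other called genes outside the rule, 3 that encode developmental regulators are given as values, again chosen after these were seen. The T-box gene tbx1.L read 7.40, 7.23 and 8.48 in explants labelled RA-depleted and 6.48, 5.62 and 7.49 in those labelled control (1.17, SE 0.15, adjusted p = 0.0494), with tbx1.S at 0.10. The call was lost without pair 1 (1.3, adjusted p = 0.117), without pair 3 (1.27, adjusted p = 0.0709) and with arrays centred on the median (adjusted p = 0.0566). It was lost too with the random block (adjusted p = 0.222) and with dim probe sets left out (adjusted p = 0.0672). tcf21.L, a helix-loop-helix gene of visceral mesoderm, was higher by 0.68 (SE 0.07, adjusted p = 0.0337), with overlapping arms. It did not pass without pair 1, 2 or 3 (0.74, 0.66 and 0.63, adjusted p = 0.106, 0.111 and 0.0753) or with the random block (adjusted p = 0.252). The chemokine receptor gene cxcr4.L read 9.66, 9.40 and 9.54 in explants labelled RA-depleted and 8.48, 8.13 and 8.55 in those labelled control, without overlap (1.15, SE 0.08, adjusted p = 0.0138), and did not pass without pair 1 (1.13, adjusted p = 0.0772).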
